A study of Homo sapiens with 2 samples.

Results

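The chromatin modifiers and remodellers of this table are the enzymes, subunits and reader proteins that write, erase, bind or move marks and nucleosomes. They were taken by gene name, as every gene whose single listed symbol begins with KDM, JMJD, KMT, MLL, SETD, HDAC, SIRT, KAT, SMARC, CHD followed by a digit, ARID, BRD, EZH, EED, SUZ12, CBX, PHF, DNMT or TET followed by a digit, leaving out KDM3A, which the table lists as JMJD1A. The rule took 46 of the 2792 genes in the table, with 5 to 76 probe sets each (median 18.5) and 1017 probe sets in all. The rule itself uses names and no measured value. The names also took 3 fusion partners of MLL, namely MLLT3, MLLT6 and MLLT10, which bind chromatin but carry no modifying activity.

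The samples were HepG2 cells, a human hepatoma line, grown on collagen-coated plates. One culture received an LNA (locked nucleic acid) oligonucleotide directed at TUC338, a noncoding RNA with an ultraconserved element (TUC338 knockdown), and the other a control LNA (Control). Each group had 1 array, so every difference below compares 2 arrays of 1 cell line, has no replicate check and carries no p-value. The submitters describe the knockdown as checked experimentally. No probe set was annotated to TUC338, so these arrays give no check of it.

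Chromatin is set by a division of labour. Acetyltransferases and methyltransferases add groups to histone tails, deacetylases and demethylases remove them, and proteins with bromodomains, chromodomains or PHD fingers bind the marked tails. ATP-dependent remodellers of the SWI/SNF, ISWI and CHD families slide or evict nucleosomes, Polycomb complexes deposit repressive methylation on histone H3, and DNMT and TET enzymes set and oxidise methylcytosine. In liver cancer, genes of SWI/SNF and of the KMT2 methyltransferases are among the chromatin genes known to be mutated.

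A probe set covers roughly an exon, and a gene is given by the mean over its probe sets. The knockdown array was the brighter, with a median intensity of 507 in the knockdown against 422 in the control, and the median gene differed by 0.28 (log2, knockdown minus control). Differences below are log2 values relative to that median gene unless called deposited, so a gene that lies below it by less than 0.28 was still brighter on the knockdown array. Values given for brightest probe sets, or for only those probe sets or genes at or above the median, have a zero of their own. They are relative to the median of all genes summarised in that same way, so they cannot be set directly against the probe set ranges. The value after ± is the SD over probe sets of the same pair of arrays, which measures agreement between exons and not how cultures vary. Pooled over all genes this SD was 0.28. The hepatocyte markers ALB, APOB, TF and FGG, 4 of the 10 sought, had gene means of 10.5 to 12.9 (log2 intensity) in the knockdown and 10.0 to 12.6 in the control. Of 6 fibroblast markers, COL1A1 and PDGFRB were listed, with gene means of 7.89 to 8.17 in the knockdown and 7.66 to 8.51 in the control. Their differences ran from -0.90 to 0.22, and the lower of these is larger in size than that of any member. None of 4 leukocyte and 4 endothelial markers was in the table. The median gene had a level of 8.82 (log2 intensity, mean of both arrays). Of the 46 chromatin genes 16 lay at or above that level, against 1396 of all 2792 genes. MLL2, HDAC5, DNMT3A, PHF6 and MLLT3 were among the members below it.

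As a class the chromatin genes stayed close to the median gene. Their differences had a median of -0.0025, against 0 over all genes by construction, and 23 of 46 lay above the median gene, against 50% of all genes by construction. The middle of the class ran from -0.19 to 0.23 (quartiles), against -0.18 to 0.18 over all genes, and the SD over genes was 0.27, against 0.31. A single member, MLL2, was at least 1.5-fold lower, or 2.17% of the members, against 3.9% of all genes. No member was at least 1.5-fold higher, against 2.26% of all genes, and the highest, CHD1L, reached 1.43-fold. In deposited values 40 of the 46 were brighter on the knockdown array, a share of 87.0%, against 83% of all genes. At least 1.5-fold higher in deposited values were 4 members (CHD1L, PHF6, SMARCD2 and MLLT3), or 8.70%, against 13% of all genes, and 0 members were that much lower, against 0.967%. These shares are close to or below those over the whole table.

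**Figure D1:**
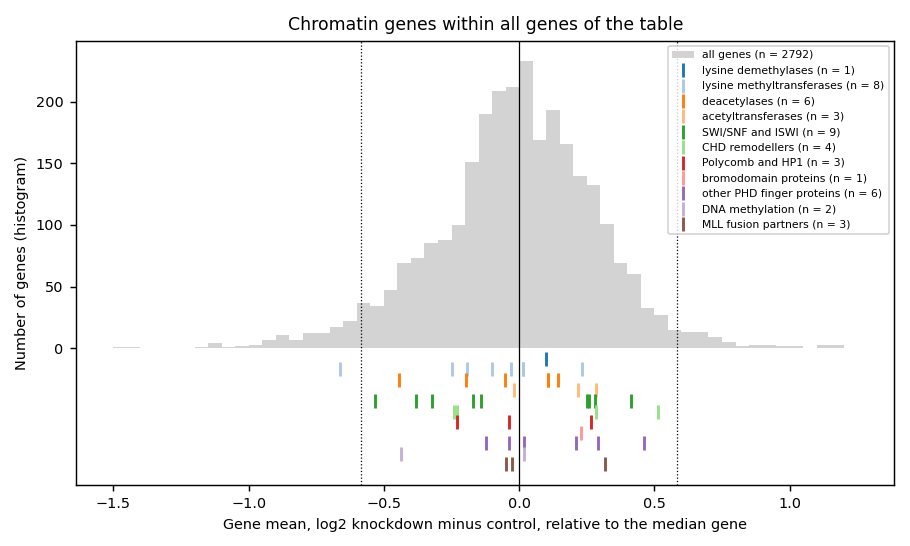
The histogram gives the number of genes by their mean knockdown minus control difference (log2, relative to the median gene) over all 2792 genes, and the coloured ticks under it give the 46 chromatin genes, 1 row per role. Dotted lines mark 1.5-fold. Only MLL2 lies outside them, on the low side, and the ticks spread over both sides of the median gene in most roles.

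Agreement between the exons of a gene gives a further view. A gene was counted as one-sided when at least 90% of its probe sets lay on the same side of the median gene, a rule chosen after the data had been seen. Below the median gene this held for 6 members, or 13.0%, against 14.1% of all genes with 4 or more probe sets. They were MLL2, HDAC5, DNMT3A, SMARCA4, ARID1B and PHF10. Above it, the rule held for 10 members, or 21.7%, against 12.6% of all genes, and they were KAT2B, KMT5A, SMARCD2, EZH2, CHD1L, KAT5, JADE3, SIRT7, MLLT3 and PHF6. Every probe set lay below for 3 members (6.52%, against 9.01% of all genes) and above for 3 (6.52%, against 7.33%). Such shares depend on the number of probe sets per gene, which had a median of 18.5 in the members and 12 over all genes. They are therefore not on an equal footing. Probe sets within a member differed by an SD of 0.18 to 0.41.

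**Figure D2:**
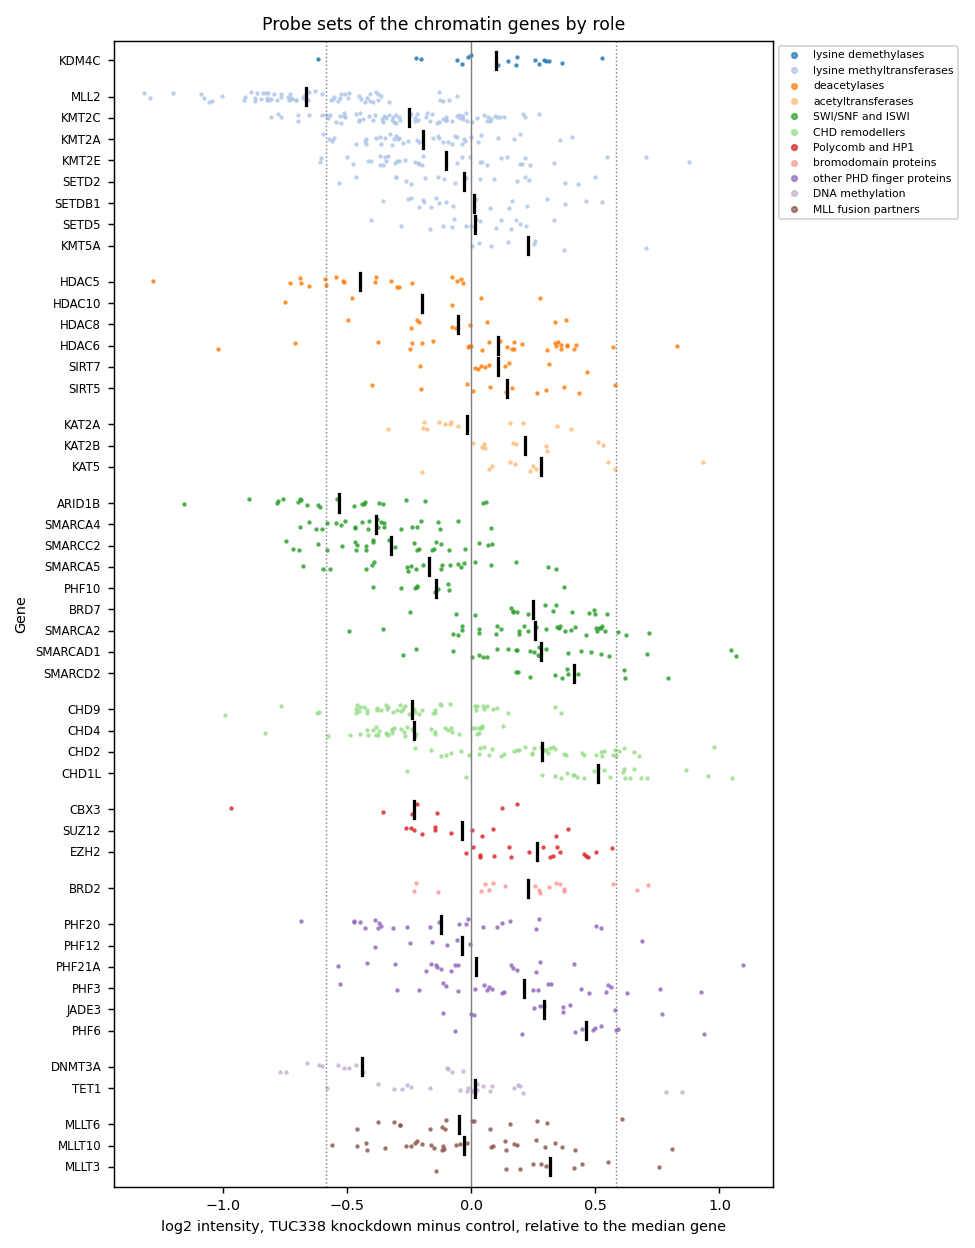
Each dot is a probe set of the gene named on the left, placed by its log2 knockdown minus control difference relative to the median gene. Black bars are gene means, colours give the role and dotted lines mark 1.5-fold. All 67 dots of MLL2 lie left of 0, and the genes of SWI/SNF and of the CHD family fall on both sides.

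Among the histone methyltransferases, the KMT2 enzymes methylate lysine 4 of histone H3, a mark of promoters and enhancers. MLL2, a name that the RefSeq table gives as an older symbol of both KMT2D and KMT2B and that was therefore kept as listed, was the lowest member. It averaged 7.88 in the knockdown and 8.26 in the control (log2 intensity, here and below) over 67 probe sets. All 67 probe sets lay below the median gene, and 62 were dimmer on the knockdown array in deposited values too. Its difference was -0.66 ± 0.28, or 63.2% of control, and -0.38 in deposited values, or 76.9% of control. Its probe sets ran from -1.32 to -0.06. Counting MLL2, 76 of the 2792 genes lay at or below this value.

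The related enzymes lay on the same side with smaller values. KMT2C, which acts mostly at enhancers, averaged 8.61 in the knockdown and 8.57 in the control. Its difference was -0.25 ± 0.26 and 62 of 76 probe sets lay below the median gene. KMT2A, the founding member of the family, averaged 8.47 in the knockdown and 8.38 in the control. Its difference was -0.19 ± 0.24 with 33 of 41 below. Both were slightly brighter on the knockdown array in deposited values. MLL2 was lower than KMT2A by a difference of -0.47, which does not depend on the median gene but shrinks at the brightest probe sets, where MLL2 lay at -0.59 and KMT2A at -0.51. By probe sets, 62 of its 67 probe sets lay below the median probe set of KMT2A. KMT2E, a relative without clear methyltransferase activity, lay at -0.10 ± 0.35. Parts of KMT2C are nearly identical to BAGE genes, and 6 further probe sets listed for both were kept out of its mean.

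The means of the other SET domain enzymes lay near or above the median gene. SETD2, which trimethylates lysine 36 of histone H3 in transcribed genes, lay at -0.03 ± 0.30. SETDB1, which places repressive methylation on lysine 9, lay at 0.01 ± 0.26, and SETD5 at 0.01 ± 0.19. At their brightest probe sets SETDB1 lay at -0.27 and SETD5 at -0.20. KMT5A, the enzyme of monomethylated lysine 20 on histone H4, listed as SETD8, averaged 9.43 in the knockdown and 8.92 in the control, and all 8 probe sets lay above the median gene (0.23 ± 0.23). The 8 methyltransferases as a group had a median of -0.06, with 5 below the median gene. In deposited values the median was 0.22.

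Lysine demethylases reverse these marks, and the naming rule took only KDM4C, a demethylase of lysine 9 and lysine 36 listed as JMJD2C. It averaged 8.76 in the knockdown and 8.38 in the control, and its difference was 0.10 ± 0.27 with 11 of 18 probe sets above the median gene. A further 5 demethylases are listed under older names that the rule did not take and lie on both sides of the median gene. KDM6A, which removes methylation from lysine 27 and is listed as UTX, averaged 8.36 in the knockdown and 7.34 in the control. Its level of 7.85 over both arrays was below the 8.82 of the median gene. All 33 probe sets lay above the median gene (0.74 ± 0.31), and all were also brighter in deposited values, by a mean of 1.03. KDM5B, a demethylase of lysine 4 listed as JARID1B, averaged 9.39 in the knockdown and 9.63 in the control, with all 31 probe sets below the median gene (-0.52 ± 0.23) and 26 of them dimmer in deposited values. Its relative KDM5C lay on the opposite side, at 0.38 ± 0.22 with 22 of 24 probe sets above. KDM2A lay at 0.16 ± 0.25 and KDM2B at -0.01 ± 0.34.

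Among the deacetylases HDAC5 was the lowest. HDAC5, a class IIa enzyme that shuttles between cytoplasm and nucleus and restrains MEF2 factors, averaged 8.49 in the knockdown and 8.65 in the control. Its mean was 73.4% of control relative to the median gene and 89.4% in deposited values. All 20 of its probe sets lay below the median gene (-0.45 ± 0.30), from -1.28 to -0.03, and 15 were dimmer in deposited values. This held for none of the other 5 deacetylases taken by the rule. HDAC10, known for deacetylating polyamines, had the widest spread of any member (-0.20 ± 0.41 over 5 probe sets), and HDAC8 lay at -0.05 ± 0.27. HDAC6, the cytoplasmic tubulin deacetylase, lay at 0.11 ± 0.37 with probe sets from -1.02 to 0.83. The sirtuins use NAD: SIRT7, a nucleolar enzyme, lay at 0.11 ± 0.18 with 9 of 10 probe sets above the median gene, and SIRT5, a mitochondrial enzyme that removes succinyl groups, at 0.14 ± 0.27 with 9 of 12. HDAC6 and HDAC8 changed sides at their brightest probe sets, to -0.11 and 0.42. The median of the 6 was 0.03, and its sign varied with the way probe sets were summarised.

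The 3 acetyltransferases had a median of 0.22. KAT5, or TIP60, the catalytic subunit of the NuA4 complex in transcription and DNA repair, averaged 8.53 in the knockdown and 7.97 in the control. Its difference was 0.28 ± 0.30, with 10 of 11 probe sets above the median gene. KAT2A and KAT2B are paralogs that act in SAGA and ATAC. KAT2B, or PCAF, lay above the median gene at all 10 probe sets (0.22 ± 0.19, with 7.93 in the knockdown and 7.43 in the control). KAT2A, or GCN5, lay at -0.02 ± 0.22 with 4 of 13 above (9.47 in the knockdown and 9.20 in the control). KAT2A was lower than KAT2B by a difference of -0.23, and 9 of its 13 probe sets lay below every probe set of KAT2B. Of the acetyltransferases listed under older names, KAT7 and KAT8 both lay at 0.14, with SDs of 0.20 and 0.28.

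SWI/SNF held several of the lower members and several of the higher ones. The complex has 1 of the ATPases SMARCA4 and SMARCA2 in each assembly, built on SMARCC core subunits, with ARID1 proteins in its BAF form and PHF10 and BRD7 in its PBAF form. SMARCA4, or BRG1, averaged 9.18 in the knockdown and 9.27 in the control over 26 probe sets. SMARCA2, or BRM, averaged 8.69 in the knockdown and 8.15 in the control over 33. The ATPases thus differed in direction relative to the median gene: SMARCA4 lay below it at 25 of 26 probe sets (-0.38 ± 0.19), and SMARCA2 above it at 27 of 33 (0.26 ± 0.28). SMARCA4 was lower than SMARCA2 by a difference of -0.64, or 1.56-fold, and all 26 of its probe sets lay below the median probe set of SMARCA2. In deposited values the difference of SMARCA4 was -0.10, while SMARCA2 was higher by 0.54.

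ARID1B, an alternative to ARID1A in BAF and a DNA-binding subunit, was the lowest of the complex. It averaged 8.84 in the knockdown and 9.09 in the control. Its difference was -0.53 ± 0.29, or 69.2% of control relative to the median gene and 84.2% in deposited values. Of its 22 probe sets, 20 lay below the median gene and 18 were dimmer in deposited values. The core subunit SMARCC2 (8.56 in the knockdown and 8.60 in the control) lay at -0.32 ± 0.24 with 24 of 27 below. PHF10 lay at -0.14 ± 0.20 with 9 of 10 below. On the other side, SMARCD2, which links SWI/SNF to transcription factors, averaged 9.70 in the knockdown and 9.0 in the control. All 11 of its probe sets lay above the median gene (0.41 ± 0.19) and above every probe set of SMARCC2. BRD7 averaged 9.49 in the knockdown and 8.95 in the control (0.25 ± 0.22, 14 of 16 above).

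Members named for SWI/SNF also act outside it. SMARCA5, the ATPase of the ISWI complexes, lay at -0.17 ± 0.27 and 17 of its 22 probe sets lay below the median gene. Its brightest probe set lay at -0.48. SMARCAD1, a remodeller of DNA replication and repair, lay at 0.28 ± 0.33 with 22 of 25 above, but its brightest probe set lay at -0.19. The 9 genes of the SWI/SNF and ISWI group had a median of -0.14, with 5 below the median gene. That median was 0.14 in deposited values and 0.06 after removal of a promoter GC trend. SMARCC2, at -0.32, has no promoter window and drops out of the latter value. That value is therefore not over the same genes as the median of -0.14, and its sign cannot be set against it.

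**Figure D3:**
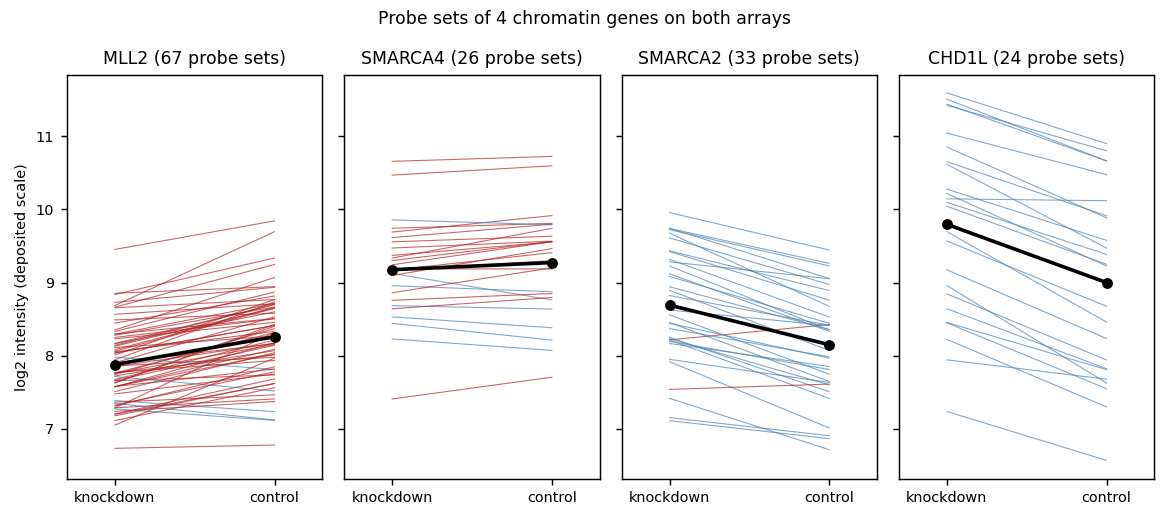
Each thin line joins the log2 intensity (deposited scale) of a probe set on the knockdown array, left, to that on the control array, right, red where the knockdown is dimmer and blue where it is brighter. Black points are gene means. MLL2 and SMARCA4 are mostly dimmer in the knockdown, while SMARCA2 is brighter at 31 of 33 probe sets and CHD1L at all 24.

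The CHD family falls into pairs on both sides. CHD1L, or ALC1, a remodeller recruited by poly(ADP-ribose) to damaged DNA and known as a gene amplified in liver cancer, was the highest member. It averaged 9.80 in the knockdown and 9.0 in the control over 24 probe sets, and all 24 were brighter in deposited values, by a mean of 0.80, or 174% of control. The difference was 0.51 ± 0.28, or 143% of control, with 22 of 24 probe sets above the median gene, and 91 genes of the table including CHD1L were as high or higher. CHD2, a remodeller that deposits histone H3.3, averaged 8.96 in the knockdown and 8.39 in the control (0.28 ± 0.26, 37 of 44 above). CHD4, the ATPase of the NuRD deacetylase complex, averaged 10.18 in the knockdown and 10.12 in the control (-0.23 ± 0.20, 34 of 43 below), and CHD9 lay at -0.24 ± 0.27 (35 of 46 below). All 43 probe sets of CHD4 lay below the median probe set of CHD1L. CHD4 and CHD9 were within 0.05 and 0.04 of the control in deposited values.

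Promoter sequence is shown for 4 of the genes these results turn on, DNMT3A and SMARCA4 from the low side and SMARCA2 and CHD1L from the high side, as context for how rich in CG their starts are. These 4 were picked and do not stand for the lower and higher members as groups. ARID1B, which lay lower than DNMT3A, has a window that is not shown. Its difference went from -0.53 to -0.66 when a promoter GC trend was removed. Each is the 250 bases before the first start listed by RefSeq (GRCh38.p14), 5′ to 3′ on the strand of the gene, with CG dinucleotides in capitals. The genes have 2 to 6 listed starts, and which of them HepG2 uses was not measured. The windows are chr2:25342484-25342733 (minus strand), chr19:10960780-10961029 (plus), chr9:2015097-2015346 (plus) and chr1:147242434-147242683 (plus).
DNMT3A: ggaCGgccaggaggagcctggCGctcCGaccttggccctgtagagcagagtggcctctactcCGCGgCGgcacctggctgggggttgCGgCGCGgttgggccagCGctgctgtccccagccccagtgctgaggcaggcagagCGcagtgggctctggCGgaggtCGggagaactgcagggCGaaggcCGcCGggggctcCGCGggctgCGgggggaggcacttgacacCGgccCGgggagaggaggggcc
SMARCA4: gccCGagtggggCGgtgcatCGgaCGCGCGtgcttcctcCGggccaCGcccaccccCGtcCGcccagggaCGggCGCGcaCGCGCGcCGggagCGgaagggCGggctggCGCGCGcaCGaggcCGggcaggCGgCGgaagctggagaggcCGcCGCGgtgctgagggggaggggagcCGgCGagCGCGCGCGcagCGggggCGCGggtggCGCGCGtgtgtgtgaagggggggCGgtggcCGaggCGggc
SMARCA2: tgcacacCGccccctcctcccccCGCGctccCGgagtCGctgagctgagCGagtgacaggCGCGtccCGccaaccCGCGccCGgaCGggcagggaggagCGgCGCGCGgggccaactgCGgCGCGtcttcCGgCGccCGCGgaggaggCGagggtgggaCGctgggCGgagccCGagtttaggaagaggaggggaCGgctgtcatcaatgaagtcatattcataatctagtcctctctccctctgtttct
CHD1L: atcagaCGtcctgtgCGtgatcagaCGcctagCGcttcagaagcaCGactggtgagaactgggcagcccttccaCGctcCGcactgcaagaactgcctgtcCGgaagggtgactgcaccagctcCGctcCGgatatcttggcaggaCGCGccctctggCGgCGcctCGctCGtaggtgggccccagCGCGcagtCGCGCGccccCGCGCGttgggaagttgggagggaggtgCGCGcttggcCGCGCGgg
The GC content of these windows was 74.8% in DNMT3A, 82.4% in SMARCA4, 68.8% in SMARCA2 and 68.4% in CHD1L, against a median of 58% over 34943 windows of the same length. They held 21, 44, 29 and 29 CG dinucleotides in that order, against a median of 11. The motif GGGCGG, searched on both strands, had 4 matches in SMARCA4, 2 in SMARCA2 and none in DNMT3A or CHD1L, and 42.5% of all windows held it. CCAAT, on both strands, had no match in the 4 windows and was held by 32.0% of all windows. A match describes the letters and is no measure of binding. A promoter window was listed for 41 of the 46 members. Over the 2372 genes with a window, the difference and the GC content of the full window correlated with a Spearman rho of -0.15, and over the 41 members with one of -0.21. The Pearson r was -0.15 over all of these genes and only -0.05 over the members. All points share the same pair of arrays, and the part of base composition in the differences was not tested beyond the trend removed in the closing section.

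In DNA methylation the table held 1 writer and 1 eraser. DNMT3A, which methylates new sites, averaged 8.53 in the knockdown and 8.68 in the control. All 14 of its probe sets lay below the median gene, from -0.77 to -0.03, and 10 were dimmer in deposited values. The difference was -0.44 ± 0.26, or 73.8% of control relative to the median gene and 89.9% in deposited values. TET1, which oxidises methylcytosine, lay at the median gene (0.02 ± 0.32, 13 of 23 above), with 8.20 in the knockdown and 7.90 in the control, and at -0.16 at its brightest probe set.

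Polycomb repressive complex 2 (PRC2) methylates lysine 27 of histone H3. Its catalytic subunit EZH2 averaged 9.25 in the knockdown and 8.70 in the control, with 17 of 18 probe sets above the median gene (0.27 ± 0.19) and all 18 brighter in deposited values. The core subunit SUZ12 averaged 9.21 in the knockdown and 8.96 in the control and lay at -0.04 ± 0.22, with 5 of 12 above. SUZ12 was thus lower than EZH2 by a difference of -0.30. CBX3, or HP1 gamma, which binds methylated lysine 9, lay at -0.23 ± 0.38 with 5 of 7 below and a single probe set at -0.97. CBX3 has processed pseudogenes of similar sequence, so its value is less certain.

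The means of readers with bromodomains and PHD fingers were mostly near or above the median gene, but this depended on the probe sets for the PHD finger genes. BRD2, a BET protein that binds acetylated histones, averaged 10.18 in the knockdown and 9.67 in the control (0.23 ± 0.27, 16 of 19 above). PHF6, a nucleolar PHD protein mutated in leukaemia, was the highest of its group. It averaged 8.88 in the knockdown and 8.13 in the control. Its difference was 0.46 ± 0.26, or 138% of control relative to the median gene and 168% in deposited values. Of its 10 probe sets, 9 lay above the median gene. JADE3, a scaffold of the acetyltransferase KAT7 listed as PHF16, lay at 0.29 ± 0.26 (10 of 11 above). It lay at 0.03 with probe sets at or above the median intensity and at 0.10 at its brightest probe set. PHF3, which binds RNA polymerase II, lay at 0.21 ± 0.35 (19 of 25 above). PHF21A, a subunit of the LSD1 corepressor complex, lay at 0.02 ± 0.37, PHF12, a partner of SIN3, at -0.04 ± 0.34, and PHF20, a subunit of a KAT8 complex, at -0.12 ± 0.32. The 6 PHD finger genes had a median of 0.12, which turned to -0.09 with brightest probe sets, where PHF3 lay at -0.12, PHF21A at -0.10 and PHF20 at -0.39, and to -0.05 with probe sets at or above the median intensity.

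The 3 MLL fusion partners differed among themselves. MLLT3, or AF9, a reader of acylated histones in elongation complexes, lay at 0.32 ± 0.24 with 9 of 10 probe sets above the median gene (8.08 in the knockdown and 7.47 in the control), but its brightest probe set lay at -0.06. MLLT10, a cofactor of the methyltransferase DOT1L, lay at -0.03 ± 0.30 and MLLT6 at -0.05 ± 0.28.

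Partner genes were also taken from a list of other chromatin genes, of which 49 were in the table. The list leaves out the 7 demethylases and acetyltransferases under older names given above, of which KDM6A was past 1.5-fold. None of the 49 was 1.5-fold away from the median gene in either direction, against 2.26% higher and 3.9% lower over all genes. Their median was 0.05 (-0.04 with brightest probe sets) and 30 of 49 lay above the median gene. In deposited values 7 were at least 1.5-fold higher, or 14.3%, against 13% of all genes. At the ends of this list were ATAD2, a bromodomain ATPase of replicating chromatin, at 0.55 ± 0.29 with 30 of 31 probe sets above, and ASH1L, a methyltransferase of lysine 36, at -0.45 ± 0.31 with 24 of 26 below. EHMT2, or G9a, a methyltransferase of lysine 9, lay at -0.42 ± 0.20 with 17 of 18 below. These 3 genes were named after their values were seen.

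Set beside their complexes, genes above and genes below the median gene were found in each of the 6 complexes compared. As 50% of all genes lie above it by construction, this alone sets no complex apart. In PRC2 the only gene below was SUZ12, at -0.04 ± 0.22. In SWI/SNF, the PBAF subunit PBRM1 (-0.29 ± 0.20) and ACTL6A (-0.20 ± 0.34) lay with SMARCA4, while DPF2 (0.31 ± 0.19) lay with SMARCD2. Around the KMT2 enzymes, ASH2L, a core subunit that all of them share, lay at 0.45 ± 0.28, on the opposite side from MLL2, KMT2C and KMT2A, as did KDM6A, a subunit of the KMT2C and KMT2D complexes. HCFC1 (-0.25 ± 0.18) and MEN1 (-0.10 ± 0.15) lay below the median gene. In NuRD, MTA2 lay at 0.33 ± 0.16 and MTA3 at 0.07 ± 0.21, with CHD4 below. TRRAP, the scaffold of both the SAGA and TIP60 complexes, lay at -0.32 ± 0.29 with 67 of 77 probe sets below. The TIP60 subunit EPC1 (0.22 ± 0.27) lay above. So did the adaptor TADA2A (0.35 ± 0.28). SAGA and ATAC were pooled in this comparison, so TADA2A and TRRAP need not share a complex.

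**Figure D4:**
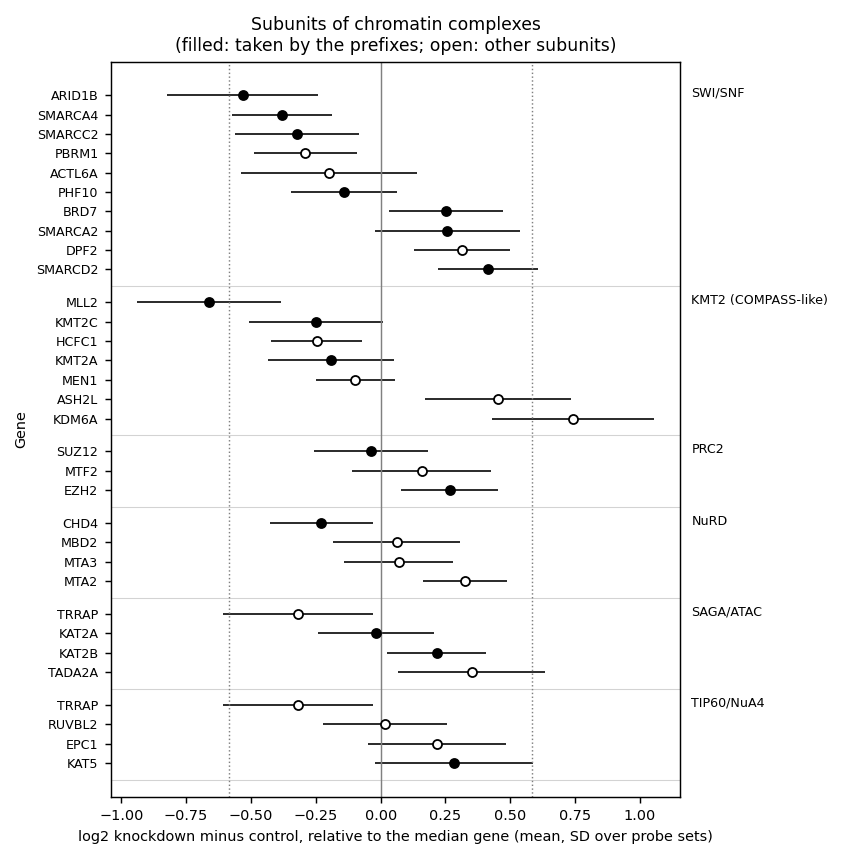
Points are gene means of the log2 knockdown minus control difference relative to the median gene, bars are SDs over probe sets, filled points are genes taken by the naming rule and open points are other subunits. Dotted lines mark 1.5-fold. In SWI/SNF and around the KMT2 enzymes the subunits spread on both sides of 0, from -0.53 to 0.41 and from -0.66 to 0.74.

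The class was also set beside gene families of similar number. The 48 zinc finger genes named ZNF, ZBTB or ZSCAN had a median of -0.01, with 2 genes (4.17%) at least 1.5-fold higher and 0 lower. The 52 solute carriers had a median of -0.03, with 3 higher (5.77%) and 2 lower (3.85%). The chromatin genes had 0 higher and 1 lower (2.17%), against 2.26% higher and 3.9% lower over all genes. Counts this small do not set the class apart, and no test of a difference was possible. Members with more probe sets tended to lie lower (Spearman rho -0.28 over 46 members), while over all 2792 genes the rho was 0.04. The points share the same pair of arrays, and MLL2 and KMT2C, with the most probe sets, are among the lower members. Mean intensity showed no such tendency (rho 0.03 over members and 0.05 over all genes).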

How the data were processed

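The authors' deposited table covers 45200 probe sets on 2 arrays, 1 per group. Per the labels' protocols, Trizol RNA was amplified, converted to cDNA and biotin-labelled with whole-transcript kits. Normalization, software and build are not stated in the labels. The deposited values were read as natural log intensities, because their exponentials under 2000 fell more often than elsewhere on multiples of 0.5 plus a fixed residue (1154 of 41367 knockdown and 1167 of 42089 control values in the fullest bin, against means of 82.7 and 84.2 per bin), and were divided by the natural log of 2. Only the 42575 probe sets with 1 symbol were used, and older symbols were updated through the RefSeq table of GRCh38.p14 where they had 1 current name. Gene differences are means over probe sets, knockdown minus control, less the median over 2792 genes (0.28). With 1 array per group there is no test, and counts use 1.5-fold. Members, roles, partner lists and complexes were chosen with earlier results of these data known. Beside members accounted for by role, genes were named when past 1.5-fold, among the 2 highest or lowest of a role, or core enzymes. The counting was checked on simulated data. Computations used Python 3.11.15, NumPy 2.4.6 and pandas 2.3.3. The number of arrays limits the precision.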

Additional observations from a re-analysis of the deposited data

How the results depend on the processing

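With 1 array per group, nothing here measures the variation between cultures, and no paired analysis was possible because each group has a single array. Taking deposited values without centring moved the most: 4 members were then at least 1.5-fold higher and 0 lower, 25 had 90% of probe sets above 0 and 1 below, and the median of the members was 0.28 and that of the partner genes 0.34. Role medians were then 0.38 for demethylases, 0.22 for methyltransferases, 0.31 for deacetylases, 0.50 for acetyltransferases, 0.14 for SWI/SNF and ISWI, 0.31 for CHD remodellers, 0.07 for DNA methylation, 0.25 for Polycomb and HP1, 0.51 for BRD2, 0.40 for PHD finger genes and 0.26 for MLL fusion partners. With the brightest probe set 1 member was 1.5-fold higher and 2 lower, against 145 and 194 of all 2792 genes. With probe sets at or above the median intensity 3 of 44 were lower, against 137 of 2472 genes, and 10 had 90% of probe sets below. Among the 16 members at or above the median level, 0 were 1.5-fold lower, against 52 of 1396 genes. Of these members, 3 were one-sided above and 2 below, and the acetyltransferase median, then KAT2A alone, was -0.032. The one-sided counts over all genes were not computed for these alternatives, so those of the members have no share beside them. In deposited values 83% of all genes had a mean above 0. With current symbols 1 of 52 members, KDM6A, was 1.5-fold higher, against 63 of 2792 genes. Values read as log2 left 0 lower, against 31 of 2792 genes. The lower MLL2 difference ranged from -0.78 to -0.38 over all alternatives in which it could be computed. MLL2 stayed below 0 in all of these. MLLT3, past 1.5-fold in deposited values, turned to -0.06 with the brightest probe set and to -0.12 with probe sets at or above the median intensity. Quantile normalization, loess, the median over probe sets, a minimum of 4 probe sets, leaving out the dimmest 25% of probe sets and leaving out the MLL fusion partners kept the counts at 0 higher and 1 lower. So did removing a promoter GC trend, added after the data were seen, but MLL2 has no window there and the lower gene was ARID1B, at -0.66. The brightest probe set, relative to its own median over all genes, put 9 of 46 members on the other side (HDAC6, HDAC8, MLLT3, PHF21A, PHF3, SETD5, SETDB1, SMARCAD1 and TET1).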

Other observations

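A further 9 probe sets list JMJD7 together with PLA2G4B and their readthrough gene. They averaged 8.04 in the knockdown and 7.93 in the control (log2), a difference of -0.17 ± 0.30 (SD over probe sets) relative to the median gene, with 7 of 9 below it. The 6 probe sets listed for KMT2C together with BAGE genes averaged 8.55 in the knockdown and 8.38 in the control, at -0.12 ± 0.31 with 4 of 6 below. Neither set can be assigned to 1 gene, and neither enters the values above.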
